A study of Mus musculus with 9 samples.

Results

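A set of 10 genes for proteins that write, copy or erase 2 repressive chromatin marks were read in the RNA of mouse pancreatic neuroendocrine tumors and of normal islets. They were taken by name as 10 of the 54347 genes in the count table: Dnmt1, Uhrf1, Dnmt3a and Dnmt3b, which place and copy methyl groups on cytosine, Tet1, Tet2 and Tet3, which oxidize them, and Ezh2, Ezh1 and Suz12 of polycomb repressive complex 2 (PRC2). All 10 were among the 15532 genes tested, with between 141 and 12103 estimated counts per library. DNA methylation is copied at each replication by Dnmt1, which Uhrf1 brings to newly made DNA, while Dnmt3a and Dnmt3b methylate sites that carried no mark before. PRC2 trimethylates lysine 27 of histone H3 through either Ezh2, the form of dividing cells, or Ezh1, the form that resting cells keep, and Suz12 holds the complex together. In beta cells both systems are known for keeping genes of other lineages and of immature islets silent, and loss of Ezh2 with age is known for the derepression of Cdkn2a.

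The 6 tumors came from INS-p25OE mice, which carry an Ins2-driven rtTA and a tetracycline-operated p25GFP transgene and were given doxycycline from weaning, so that p25, the fragment of p35 that keeps Cdk5 active, is made in insulin-producing cells. Of these, 3 (M1, M2 and M3) are the functional and 3 (M4, M5 and M6) the non-functional tumors of the study, where the sample titles of the former add only the word Inulin, and 3 libraries (NI1, NI2 and NI3) were made from normal islets of C57BL/6 mice. The labels give no transgene or treatment for the islet donors and no age for any animal. M2 came from a female and the other 8 libraries from males. Whole tumors and whole islets were sequenced, so that fewer cells of a type and less RNA per cell cannot be told apart in any value below.

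Levels are given in CPM, a count relative to the total of its library after scaling by the TMM method of edgeR. Library totals ran from 36468280 to 63637175 counts. Mitochondrial genes held 32.1% of the counts of M4 and 1.76% to 8.41% of those of the other libraries. Cdk5r1, the gene of p35 and p25, was at 149 to 401 CPM in the 6 tumors, at 18.4 CPM in NI2 and at 12.5 CPM in NI3, but at 280 CPM in the library labelled NI1, which goes against its label. Over all tested genes NI1 and the tumor M6 were the closest of the 36 pairs of libraries (median absolute log2 difference of 0.10, against 0.20 for the next pair, NI2 and NI3). For the 10 enzyme genes NI1 and M6 differed by at most 0.25 on the log2 scale. Gcg, the glucagon gene, was at 787 CPM in NI1 and at 34.6 CPM in M6, so the 2 libraries were not copies of each other. The 10 genes and the ratios are therefore compared with islets with all 9 libraries, without NI1, and without NI1 and M6, and NI1 is called the library labelled NI1 where a direction rests on it.

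The maintenance pair was more abundant in tumors than in NI2 and NI3. Dnmt1 (ENSMUSG00000004099, chr9:20907209-20959888 of GRCm38, minus strand) was at 170, 143 and 220 CPM in M1, M2 and M3, at 124, 114 and 132 CPM in M4, M5 and M6, and at 128, 46.2 and 41.7 CPM in NI1, NI2 and NI3. Every tumor lay above NI2 and NI3, and NI1 lay inside the range of the tumors. With all 9 libraries the log2 fold change of tumors against islets was 1.07 (standard error, SE, 0.38, adjusted p = 0.183), which did not pass the threshold of 0.05. Without NI1, Dnmt1 rose by a log2 fold change of 1.78 (SE 0.29, adjusted p = 0.0106).

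Uhrf1 (ENSMUSG00000001228, chr17:56303321-56323486, plus strand), which reads hemimethylated DNA, was likewise lowest in NI2 and NI3. It was at 37.9, 35.8 and 77.3 CPM in functional tumors, at 25.8, 42.7 and 30.6 CPM in non-functional tumors, and at 28.4, 7.54 and 4.58 CPM in NI1, NI2 and NI3. The highest value, in M3, stood apart from the other tumors, and the lowest tumor was M4, below NI1. The log2 fold change was 1.62 (SE 0.57, adjusted p = 0.183) with all 9 libraries. Without NI1 it was 2.78 (SE 0.48, adjusted p = 0.0121), a rise to 6.87 times the mean of NI2 and NI3.

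Neither de novo enzyme passed the test in edgeR, with or without NI1. Dnmt3a (ENSMUSG00000020661, chr12:3806007-3914443, plus strand) was at 169, 152 and 142 CPM in functional tumors, at 116, 91.3 and 127 CPM in non-functional tumors, and at 126, 85.9 and 69.4 CPM in NI1, NI2 and NI3. Functional tumors were above every non-functional tumor and every islet library, and M5 was only just above NI2. The log2 fold change against islets was 0.50 (SE 0.25, adjusted p = 0.285) and without NI1 it was 0.78 (SE 0.26, adjusted p = 0.0941).

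Dnmt3b (ENSMUSG00000027478, chr2:153649450-153687730, plus strand) was the least abundant of the methyltransferases. It was at 8.02, 22.8 and 8.73 CPM in functional tumors, at 14.6, 9.48 and 7.74 CPM in non-functional tumors, and at 6.50, 5.37 and 3.49 CPM in NI1, NI2 and NI3. All 6 tumors lay above all 3 islet libraries, M6 by the smallest margin, and M2 was the highest by far. The log2 fold change was 1.22 (SE 0.42, adjusted p = 0.180) with all libraries and 1.42 (SE 0.51, adjusted p = 0.114) without NI1.

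None of the 3 TET genes separated tumors from islets. Tet1 (ENSMUSG00000047146, chr10:62804570-62908996, minus strand) was at 17.2, 9.53 and 16.4 CPM in functional tumors, at 12.7, 7.05 and 14.9 CPM in non-functional tumors, and at 15.7, 8.44 and 6.72 CPM in NI1, NI2 and NI3. Tet2 (ENSMUSG00000040943, chr3:133463679-133545139, minus strand) was at 46.9, 19.8 and 59.9 CPM in functional tumors, at 23.6, 24.0 and 41.2 CPM in non-functional tumors, and at 44.1, 24.9 and 12.9 CPM in NI1, NI2 and NI3. M5 for Tet1, and M2, M4 and M5 for Tet2, lay between NI2 and NI3. Tet3 (ENSMUSG00000034832, chr6:83362373-83459084, minus strand) was the most abundant of the family per length in tumors, at 56.9, 46.5 and 80.8 CPM in functional tumors, at 40.2, 31.4 and 56.1 CPM in non-functional tumors, and at 56.0, 39.9 and 29.96 CPM in NI1, NI2 and NI3. The log2 fold changes against islets were 0.33 (SE 0.36) for Tet1, 0.39 (SE 0.44) for Tet2 and 0.31 (SE 0.30) for Tet3, with adjusted p from 0.597 to 0.649. Without NI1 they were 0.78, 0.92 and 0.57, with adjusted p from 0.234 to 0.312.

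Within PRC2, the largest difference was that of the catalytic subunit Ezh2. Ezh2 (ENSMUSG00000029687, chr6:47530139-47595341, minus strand) was at 40.1, 54.1 and 64.4 CPM in functional tumors, at 44.1, 51.7 and 29.3 CPM in non-functional tumors, and at 26.9, 10.03 and 6.94 CPM in NI1, NI2 and NI3. All 6 tumors lay above all 3 islet libraries, with M6 just above NI1. The log2 fold change was 1.69 (SE 0.43, adjusted p = 0.148) with all libraries, the smallest adjusted p of the 10 genes. Without NI1, Ezh2 rose by a log2 fold change of 2.48 (SE 0.35, adjusted p = 0.00591), to 5.57 times the mean of NI2 and NI3.

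Ezh1 (ENSMUSG00000006920, chr11:101191115-101226463, minus strand), the alternative catalytic subunit, varied least. It was at 66.0, 64.7 and 69.8 CPM in functional tumors, at 54.5, 57.5 and 62.3 CPM in non-functional tumors, and at 59.2, 52.9 and 48.7 CPM in NI1, NI2 and NI3. The 9 values lay close together, and the log2 fold change against islets was 0.22 (SE 0.15, adjusted p = 0.424), or 0.30 (adjusted p = 0.302) without NI1. Suz12 (ENSMUSG00000017548, chr11:79993106-80034123, plus strand) was at 132, 139 and 139 CPM in functional tumors, at 77.1, 58.2 and 79.9 CPM in non-functional tumors, and at 84.2, 61.9 and 53.4 CPM in NI1, NI2 and NI3. Its functional tumors formed a tight group above all others, while non-functional tumors overlapped with islets. Against islets its log2 fold change was 0.65 (SE 0.31, adjusted p = 0.283) and without NI1 it was 0.85 (SE 0.37, adjusted p = 0.177).

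**Figure D1:**
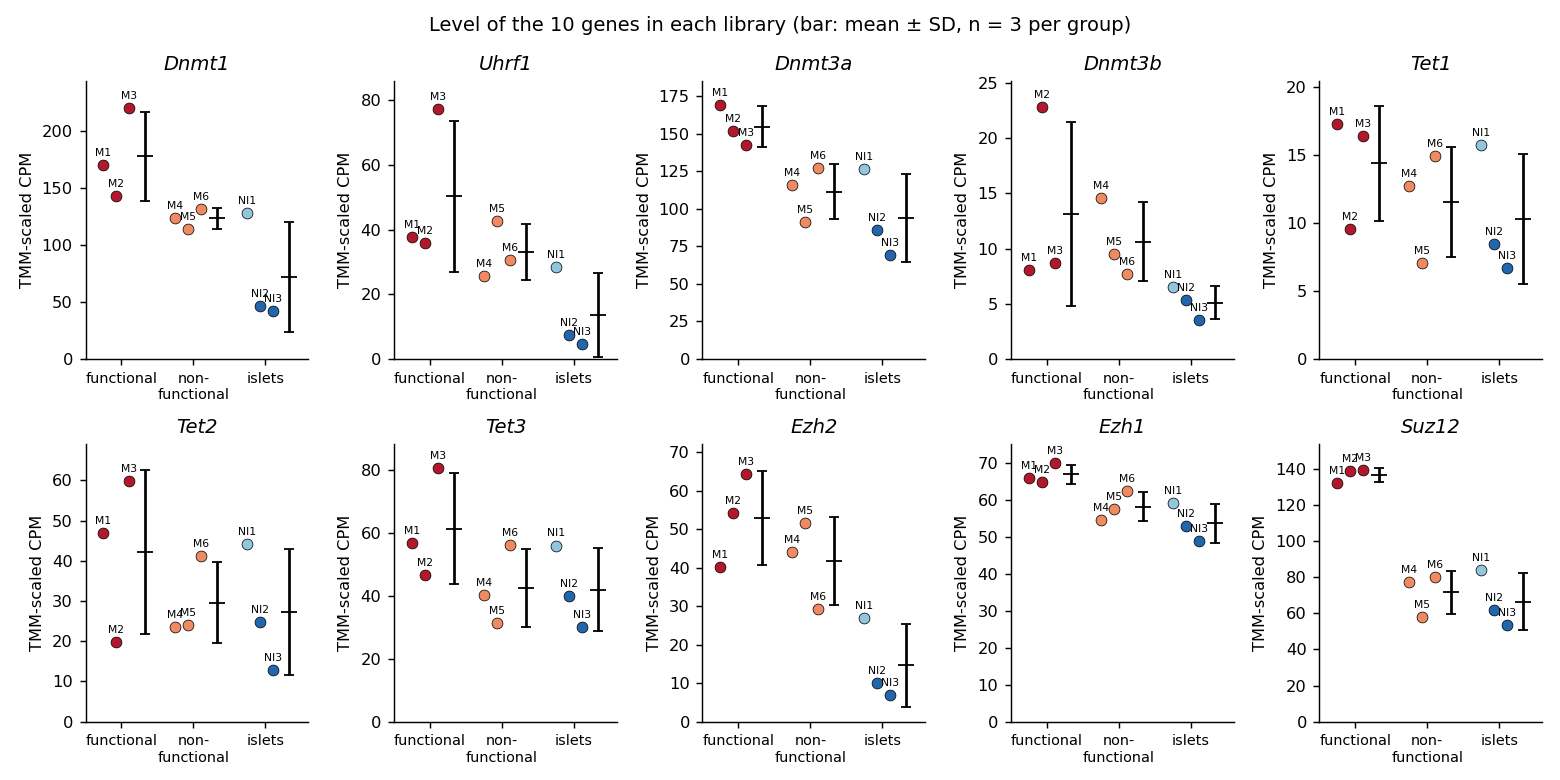
Level of each of the 10 genes in TMM-scaled CPM (linear axis from 0), 1 point per library, with functional tumors in dark red, non-functional tumors in orange, NI2 and NI3 in dark blue and NI1 in light blue; black bars are the mean ± SD of 3 libraries. NI1 sits close to M6 and above NI2 and NI3 in every panel, and the 3 functional tumors of Suz12 lie between 132 and 139 CPM, above the other 6 libraries.

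With all 9 libraries, 0 of the 10 genes passed an adjusted p of 0.05 in edgeR, where 0% of the 15532 tested genes were called higher and 0.258% lower. An unadjusted p under 0.05 was reached by 4 of the 10 (Ezh2, Dnmt3b, Uhrf1 and Dnmt1), all of them higher in tumors, against 10.7% of all tested genes higher. limma-voom called 0 of the 10, and DESeq2 called 2, Ezh2 and Uhrf1, against 4.92% of all genes called higher. All 10 log2 fold changes were above 0, with a median of 0.58, where 52.5% of all tested genes were above 0 and their median was 0.03. All 6 tumors were above all 3 islet libraries for 2 of the 10 genes (Ezh2 and Dnmt3b), against 4.50% of tested genes, and above NI2 and NI3 for 6 of the 10, against 16.6%. The library labelled NI1 was above NI2 and NI3 for 10 of 10 genes and inside the range of the tumors for 8 of 10. The share of all tested genes in these positions was not counted, and NI1 was close to M6 over all tested genes as well.

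Without NI1, edgeR called 3 of the 10 genes higher (Uhrf1, Ezh2 and Dnmt1) and 0 lower, while 5.34% of all tested genes were called higher and 3.17% lower. Without NI1 and M6 the same 3 were called, against 5.75% of tested genes called higher, with log2 fold changes of 2.86 for Uhrf1, 2.58 for Ezh2 and 1.81 for Dnmt1. The other 7 were at 1.52 for Dnmt3b, 0.92 for Suz12, 0.88 for Tet2, 0.79 for Dnmt3a, 0.73 for Tet1, 0.55 for Tet3 and 0.30 for Ezh1 in that fit, with adjusted p from 0.0984 to 0.367. With M6 alone left out, 0 of the 10 were called and Ezh2 had an adjusted p of 0.0713. DESeq2 without NI1 called 5 of the 10, adding Dnmt3a and Dnmt3b, against 12.3% of all genes.

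**Figure D2:**
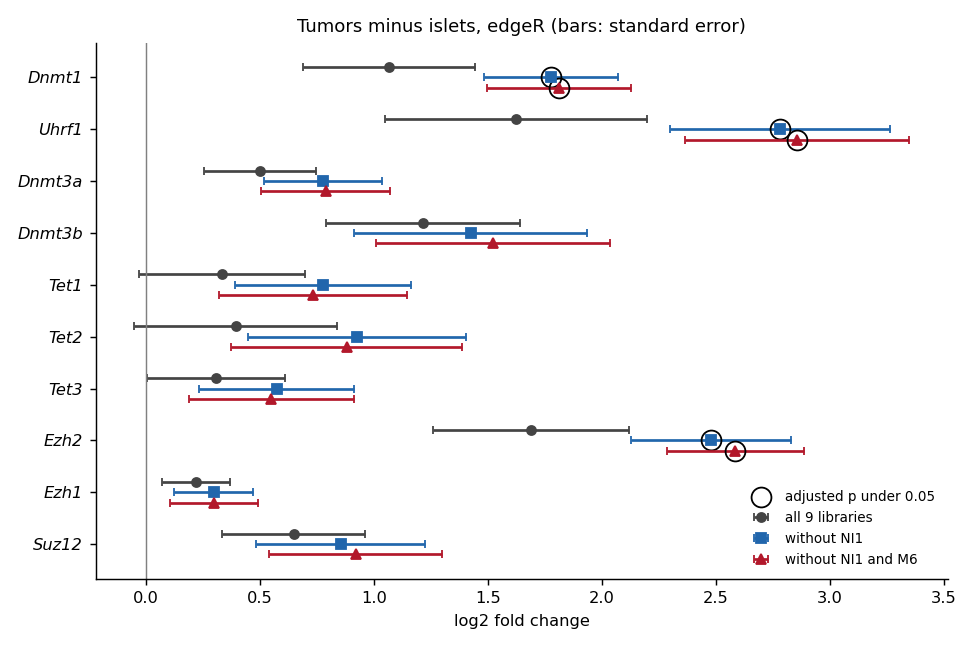
Log2 fold change of tumors against islets for each gene from edgeR (x axis, bars are the standard error), with all 9 libraries (grey circles), without NI1 (blue squares) and without NI1 and M6 (red triangles); open black circles mark an adjusted p under 0.05. The open circles fall on Dnmt1, Uhrf1 and Ezh2 in the fits without NI1, and Ezh1 lies nearest to 0.

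A ratio of 2 genes within a library does not depend on the scaling between libraries, and 3 such ratios were compared. The log2 ratio of Ezh2 to Ezh1, the forms of dividing and of resting cells, was -0.72, -0.26 and -0.12 in functional tumors, -0.31, -0.15 and -1.09 in non-functional tumors, and -1.14, -2.40 and -2.81 in NI1, NI2 and NI3. The means were -0.44 ± 0.38 (SD, n = 6) in tumors and -2.12 ± 0.87 (SD, n = 3) in islets. The groups did not overlap, and the difference of 1.68 gave an exact p of 0.0238 (two-sided permutation test, 84 labelings), the smallest value this design allows, and an adjusted p of 0.0714 over the 3 ratios. Without NI1 the difference was 2.17, and without NI1 and M6 it was 2.30.

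The log2 ratio of Uhrf1 to Dnmt1 was -1.91 ± 0.36 (SD, n = 6) in tumors and -2.66 ± 0.51 (SD, n = 3) in islets, a difference of 0.75 (exact two-sided permutation p = 0.0476, adjusted p = 0.0714). NI1, at -2.17, lay among the tumors, which ran from -2.27 to -1.42, and NI2 and NI3 were lower, at -2.61 and -3.19. The log2 ratio of Dnmt3b to Dnmt3a was -3.58 ± 0.67 (SD, n = 6) in tumors and -4.20 ± 0.17 (SD, n = 3) in islets, a difference of 0.62 (exact two-sided permutation p = 0.238, adjusted p = 0.238). Without NI1 the difference was 0.99 for Uhrf1 to Dnmt1 and 0.58 for Dnmt3b to Dnmt3a, and without NI1 and M6 it was 1.03 and 0.67. In the ratio of Dnmt3b to Dnmt3a, M1, at -4.40, was below all 3 islet libraries and M2, at -2.74, was the highest.

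**Figure D3:**
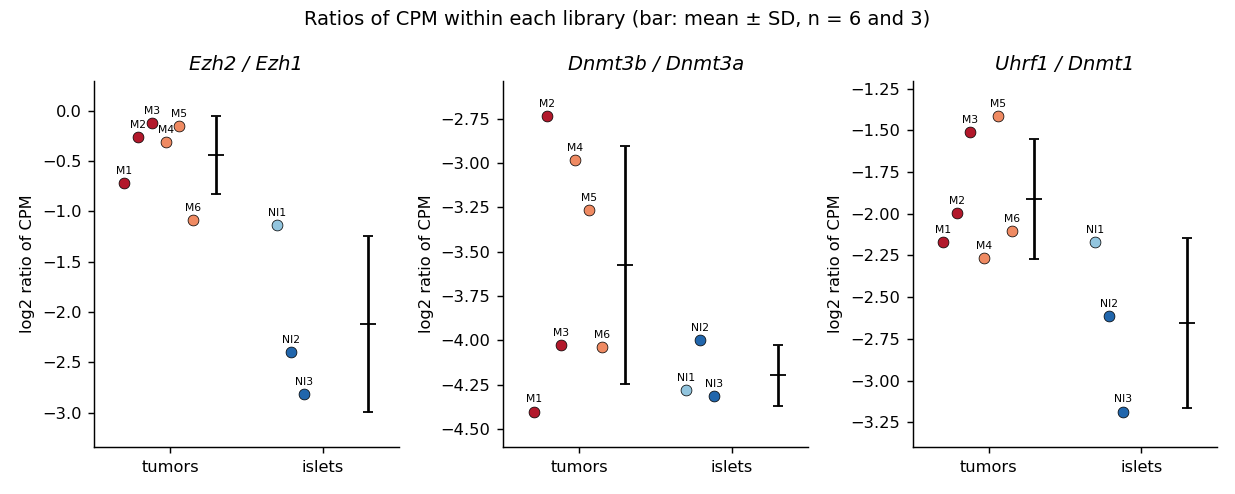
Log2 ratio of the CPM of 2 genes within each library (y axis), 1 point per library coloured as functional tumor (dark red), non-functional tumor (orange), NI1 (light blue) or NI2 and NI3 (dark blue); black bars are the mean ± SD of 6 tumors and 3 islet libraries. For Ezh2 to Ezh1 the tumors lie at -1.09 or above and the islets at -1.14 or below, with M6 and NI1 next to each other.

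Functional and non-functional tumors were compared to ask whether these enzymes differ between tumors that the study separates by hormone release. With edgeR 0 of the 10 genes passed the adjusted threshold in this comparison, and 0% of all tested genes were called higher in functional tumors. At an unadjusted p under 0.05, 1 of the 10 was higher and 0 lower, against 4.71% of tested genes higher. That gene was Suz12, at 137 ± 4.00 CPM (SD, n = 3) in functional and 71.7 ± 11.9 CPM (SD, n = 3) in non-functional tumors, with a log2 fold change of 0.93 (SE 0.21, unadjusted p = 0.00162, adjusted p = 0.455). limma-voom called 0 of the 10. DESeq2 called Suz12 alone (log2 fold change 0.90, adjusted p = 0.0391), where it called 0.142% of tested genes higher.

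The log2 fold changes of all 10 genes were above 0 in this comparison, where 50.8% of all tested genes were above 0. Their median was 0.49, against 0.01 over all tested genes. They were 0.61 (SE 0.62) for Uhrf1, 0.53 (SE 0.40) for Dnmt1, 0.53 (SE 0.32) for Tet3, 0.51 (SE 0.51) for Tet2 and 0.47 (SE 0.24) for Dnmt3a. The other 4 beside Suz12 were at 0.34 (SE 0.47) for Ezh2, 0.32 (SE 0.42) for Tet1, 0.31 (SE 0.47) for Dnmt3b and 0.20 (SE 0.16) for Ezh1. All 3 functional tumors lay above all 3 non-functional tumors for 4 of the 10 genes (Suz12, Dnmt3a, Dnmt1 and Ezh1), against 8.77% of tested genes. Dnmt3b turned to -0.34 without M2. With M6 left out, Suz12 was at 1.02 (adjusted p = 0.241).

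**Figure D4:**
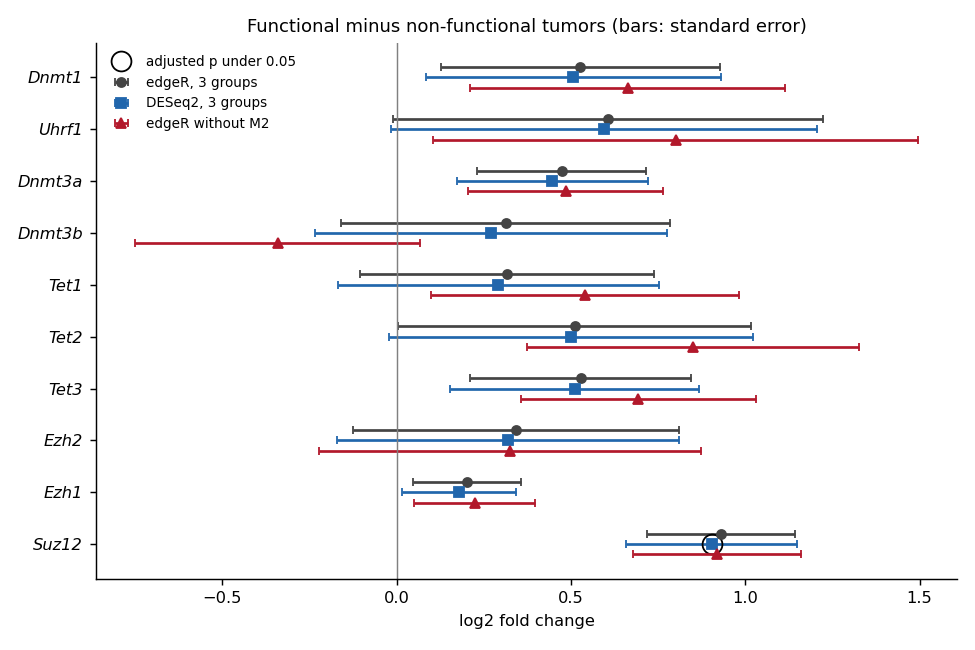
Log2 fold change of functional against non-functional tumors for each gene (x axis, bars are the standard error), from edgeR on all 9 libraries (grey circles), DESeq2 on the same libraries (blue squares) and edgeR without M2 (red triangles); the open black circle marks an adjusted p under 0.05. Suz12 lies farthest from 0 at 0.93, and Dnmt3b moves to -0.34 without M2.

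Levels of different genes were compared per kilobase of annotated exons, as mean CPM per kilobase. In tumors the order was Suz12 (21.1), Dnmt1 (20.4), Uhrf1 (9.78), Ezh1 (8.40), Dnmt3a (7.99), Ezh2 (7.08), Tet3 (3.11), Dnmt3b (2.33), Tet2 (2.13) and Tet1 (0.839). In NI2 and NI3 it was Suz12 (11.7), Ezh1 (6.83), Dnmt1 (5.96), Dnmt3a (4.67), Tet3 (2.09), Uhrf1 (1.42), Ezh2 (1.27), Tet2 (1.12), Dnmt3b (0.868) and Tet1 (0.490). Ezh1 thus stood above Ezh2 in the islets, whereas in tumors they were close. Genes annotated over the same bases as a member, on either strand, reached at most 1.73 CPM (an antisense RNA at Dnmt3b), and the kit is not stated to keep strand.

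Proliferation genes moved with the 3 enzymes that rose. The list held 19 genes, among them Top2a, which untangles replicated DNA, Cdk1, the kinase of mitotic entry, and Mcm2 and Mcm3 of the replicative helicase. With all libraries 0 of 19 passed the test, with a median log2 fold change of 1.42, and without NI1 17 of 19 rose, with a median of 2.36, where 5.34% of all tested genes were called higher. Top2a was at 315, 226 and 314 CPM in functional tumors, at 220, 226 and 104 CPM in non-functional tumors and at 97.9, 42.1 and 13.6 CPM in NI1, NI2 and NI3, and without NI1 it rose by 3.07 (adjusted p = 0.0156). Without NI1, Mcm3 rose by 3.28 (adjusted p = 0.00147), Mcm2 by 3.23 (adjusted p = 0.00141) and Cdk1 by 3.03 (adjusted p = 0.0140).

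Levels of the 19 proliferation genes were averaged in each library as log2 CPM, with a small constant added to each CPM. That mean was 5.94 ± 0.31 (SD, n = 6) in tumors and 4.16 ± 1.17 (SD, n = 3) in islets, with NI1 at 5.45. Measured against that mean in the same library, Ezh2 differed by 0.07 and Uhrf1 by 0.13 between tumors and islets, on the log2 scale. By this measure tumors minus islets came to -0.56 for Dnmt1, -0.71 for Dnmt3b, -1.19 for Suz12, -1.26 for Dnmt3a and -1.56 for Ezh1, and to between -1.49 and -1.34 for the TET genes. The list mean itself was higher in tumors by 1.78, so a gene at the same level in both groups would fall that far below 0. Negative values here are therefore not decreases in level. NI1 is counted with the islets in all of them. The part of cell division in the values of these enzymes was not tested.

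**Figure D5:**
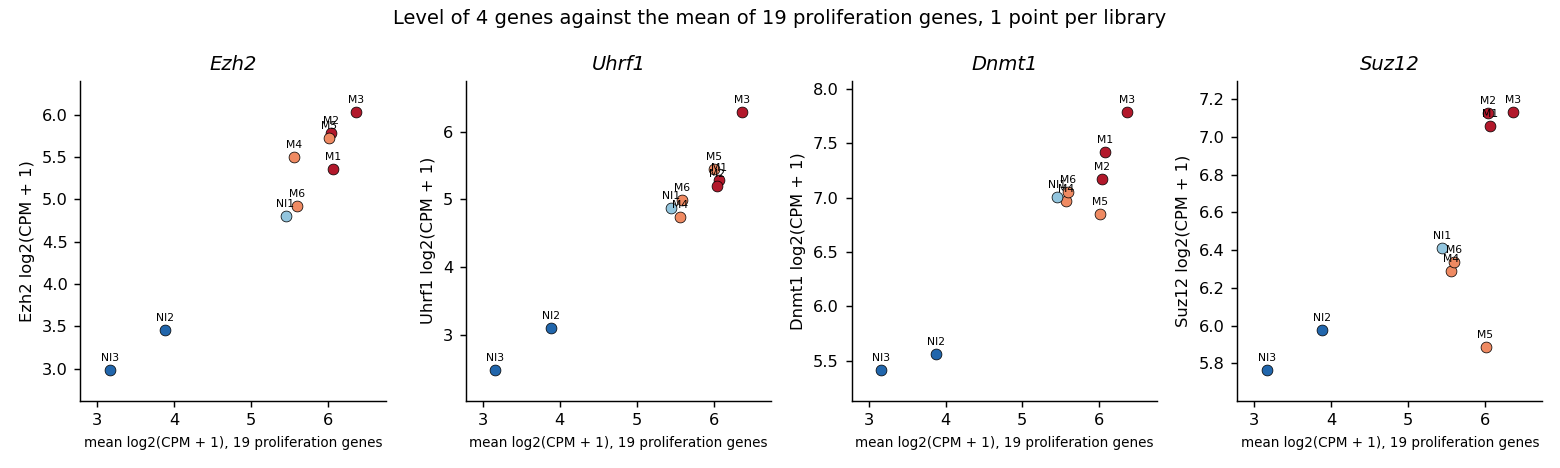
Log2(CPM + 1) of Ezh2, Uhrf1, Dnmt1 and Suz12 (y axes) against the mean log2 CPM of 19 proliferation genes (x axis), 1 point per library. The x values were taken with a constant smaller than the 1 that the axis label gives. Functional tumors are in dark red, non-functional in orange, NI1 in light blue and NI2 and NI3 in dark blue. NI2 and NI3 lie at the low end of the x axis and NI1 at 5.45 near the tumors, while for Suz12 the 3 functional tumors lie above M5, which has a similar position on the x axis.

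Letters of the kind that E2F factors bind, which drive genes of DNA replication, were looked for in RefSeq promoter windows of GRCm38.p6 (250 bases before to 50 after each start). The letters searched were TTTGGCGC, TTTCCCGC, TTTGCCGC and TTTCGCGC on both strands, none of which overlaps CCAAT, the letters bound by NF-Y, which were searched as well. E2F letters were in 2.26% of all 32851 windows and in 4 of the 15 windows of the 10 genes, those of Ezh2, Uhrf1, Dnmt1 and Suz12. All of the E2F letters searched contain the pair CG, and the 2.26% was not matched for the number of CG pairs. CCAAT was in 37.4% of all windows and in 7 of the 15, which belong to 5 of the 10 genes. The sites are shown because 3 of these 4 genes are those called without NI1, and the other is Suz12. Each line gives 30 bases, 5′ to 3′ on the strand of the gene, with the E2F letters in capitals.
Ezh2, chr6:47595009-47595038, minus strand: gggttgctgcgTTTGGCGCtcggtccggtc
Uhrf1, chr17:56304117-56304146, plus strand: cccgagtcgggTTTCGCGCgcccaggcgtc
Dnmt1, chr9:20952824-20952853, minus strand: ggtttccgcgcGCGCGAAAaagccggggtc
Dnmt1, chr9:20952574-20952603, minus strand: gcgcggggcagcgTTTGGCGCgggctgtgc
Suz12, chr11:79992876-79992905, plus strand: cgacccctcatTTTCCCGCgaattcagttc

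Counted from 1 at the annotated start of the window, the Ezh2 letters begin at base 4, in the first exon, and those of the second Dnmt1 site at base 34. The first Dnmt1 site begins 219 bases before that start, inside an exon of another Dnmt1 transcript, and the letters of Uhrf1 and Suz12 begin 185 and 219 bases before theirs. Longer stretches free of annotated exons are given for Suz12, Uhrf1 and Ezh2, with E2F letters and CCAAT, on either strand, in capitals. The stretches of Suz12 and Uhrf1 hold both kinds of letters, and that of Ezh2 holds CCAAT in both directions. The E2F letters of Ezh2 lie outside its stretch, and the windows of Ezh2 and Dnmt1 with E2F letters hold CCAAT as well.
Suz12, chr11:79992856-79993105, plus strand: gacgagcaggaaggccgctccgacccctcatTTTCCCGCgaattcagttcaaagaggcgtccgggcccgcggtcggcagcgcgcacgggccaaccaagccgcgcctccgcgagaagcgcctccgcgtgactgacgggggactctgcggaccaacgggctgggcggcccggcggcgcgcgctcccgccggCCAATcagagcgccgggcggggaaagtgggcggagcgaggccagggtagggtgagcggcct
Uhrf1, chr17:56304063-56304312, plus strand: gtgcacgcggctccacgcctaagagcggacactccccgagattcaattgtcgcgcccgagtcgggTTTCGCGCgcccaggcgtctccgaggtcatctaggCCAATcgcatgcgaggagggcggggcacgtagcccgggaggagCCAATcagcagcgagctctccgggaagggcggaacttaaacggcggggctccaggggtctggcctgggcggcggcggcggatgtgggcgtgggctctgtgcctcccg
Ezh2, chr6:47595059-47595183, minus strand: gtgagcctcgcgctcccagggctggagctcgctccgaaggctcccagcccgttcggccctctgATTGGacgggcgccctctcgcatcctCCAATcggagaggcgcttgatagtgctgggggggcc

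The windows of the 10 genes held between 2 and 57 CG pairs, the most in Tet2, and 14 of the 15 were above the median of 7 over all windows. Those with E2F letters held 31 to 41 CG pairs. The share of E2F letters among other windows as rich in CG was not counted, so no excess of these letters can be read from the matches. Matches of letters are a description of these windows, and binding was not measured.

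Partners of the methyltransferases were read from a list of 12 genes, 11 of them tested. With all libraries 0 of 11 passed the test, and without NI1 2 of 11 rose and 0 fell, where 5.34% of all tested genes were called higher. Hells, a remodeler that opens DNA for methylation, was at 77.1, 93.4 and 129 CPM in functional tumors, at 62.0, 62.4 and 66.0 CPM in non-functional tumors, and at 62.8, 5.20 and 2.48 CPM in NI1, NI2 and NI3. Without NI1 it rose by 4.41 (adjusted p = 0.00225), and Mbd4, a glycosylase for mismatches at methylated sites, rose by 1.75 (adjusted p = 0.0180). Among 12 genes linked to active demethylation, not all of them as helpers, 0 passed the test with or without NI1. The smallest p values there were those of Idh1 (log2 fold change -0.60, adjusted p = 0.308) and Cxxc4 (log2 fold change -0.39, adjusted p = 0.384).

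Of 9 other PRC2 subunits tested, 0 passed with all libraries, and 2 of 9 rose without NI1 with 0 lower, beside the same 5.34% of all tested genes. They were Phf19 (log2 fold change 3.16, adjusted p = 0.00324) and Mtf2 (log2 fold change 1.30, adjusted p = 0.0162), which both help PRC2 find its targets. Phf19 was at 11.3 to 21.5 CPM in the 6 tumors and at 13.7, 2.24 and 1.46 CPM in NI1, NI2 and NI3. Of 20 subunits of PRC1, which reads the PRC2 mark, 0 passed with all libraries and 1 rose without NI1, a share near the 5.34% of all tested genes. That was Cbx2, at 9.04 to 14.8 CPM in tumors and at 8.64, 3.05 and 3.42 CPM in NI1, NI2 and NI3 (log2 fold change without NI1 1.85, adjusted p = 0.0123). Without M6, edgeR called 1 PRC1 subunit lower, Bmi1 (log2 fold change -0.95, adjusted p = 0.0423), which was named after its values were seen. Bmi1 was also called lower by edgeR without NI1 and M6 (log2 fold change -1.03, adjusted p = 0.0223). DESeq2 called it lower with all libraries (adjusted p = 0.0282) and without NI1 (adjusted p = 0.0245). Bmi1 was not called by edgeR with all libraries (log2 fold change -0.80, adjusted p = 0.152) or without NI1 alone (adjusted p = 0.0694). Cbx2 was also called higher by edgeR without NI1 and M6 and by DESeq2 with all libraries. DESeq2 without NI1 called Cbx2, Pcgf6, Pcgf2 and Cbx7 higher, by log2 fold changes of 1.85, 1.28, 0.70 and 0.63. In that fit 12.3% of all tested genes were called higher. Pcgf6, Pcgf2 and Cbx7 were also named after their values were seen. The share of all tested genes called lower in these fits is not given here.

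Of the 5 enzymes tested that remove the PRC2 or the PRC1 mark or assist in it, 0 passed with or without NI1. Kdm6b, an H3K27 demethylase, had a log2 fold change of 0.30 (adjusted p = 0.489) and Asxl2 one of 0.25 (adjusted p = 0.575) with all libraries. Of 20 other histone lysine methyltransferases and their partners, 0 passed with all libraries and 1 rose without NI1, again a share near 5.34%. It was Suv39h1, which methylates lysine 9 of histone H3, at 24.7 to 45.5 CPM in the 6 tumors and at 23.1, 14.1 and 10.8 CPM in NI1, NI2 and NI3 (log2 fold change without NI1 1.48, adjusted p = 0.0220).

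Genes that these marks are known to silence were mostly below the filter in every group. Of 15 germline genes silenced by DNA methylation, 4 passed the filter and 0 passed the test with or without NI1, and Brdt was at 6.54 to 10.96 CPM in tumors and at 4.19 to 7.90 CPM in islets. Syce1 was at 22.2 CPM in M3, at 6.56 CPM in M5 and at 0 in the other 4 tumors, and at 0.189, 1.29 and 1.61 CPM in NI1, NI2 and NI3. Tex101, which did not pass the filter and was named after its values were seen, was at 12.03 CPM in M1 and 8.80 CPM in M4, at 0.0727 CPM or less in the other 4 tumors and at 0 in all 3 islet libraries. Of 25 developmental genes silenced by polycomb, 7 passed the filter. Without NI1, 1 of the 7, Cdkn2a, rose, beside 5.34% of all tested genes called higher.

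Cdkn2a, which encodes the cell cycle inhibitors p16 and p19, was at 34.6, 6.78 and 54.6 CPM in functional tumors, at 29.8, 63.7 and 11.9 CPM in non-functional tumors, and at 11.6, 0.903 and 0.545 CPM in NI1, NI2 and NI3. M2 was the lowest tumor, below NI1, and NI2 and NI3 were far below the rest. Its log2 fold change was 2.94 (SE 1.08, adjusted p = 0.191) with all libraries and 5.53 (SE 1.04, adjusted p = 0.0160) without NI1, so that Cdkn2a and Ezh2 were both higher in tumors than in NI2 and NI3. Of 4 islet genes that DNA methylation represses in beta cells, 3 were tested and 0 passed with or without NI1. Ldha, which makes lactate, was at 21.5 to 101 CPM in tumors and at 29.3 to 34.2 CPM in islets, and Slc16a1, which carries it, was at 1.26 to 3.84 CPM in tumors and at 2.58 to 3.66 CPM in islets.

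With all libraries, where edgeR called 0 genes in each of the 10 lists, an unadjusted p under 0.05 was reached by 15 of 19 proliferation genes, 2 of 11 methylation partners, 2 of 9 PRC2 subunits, 2 of 20 other methyltransferases and 2 of 7 polycomb-silenced genes, all higher, and by 2 of 20 PRC1 subunits that were higher and 1 that was lower. Over all tested genes 10.7% were higher at that p, and 1419 of the 15532 were lower. The shares of the other methyltransferases and of PRC1 that were higher were thus near the background. DESeq2 called 11 proliferation genes, 1 methylation partner, 1 other methyltransferase and 1 PRC1 subunit higher and 1 PRC1 subunit lower. It called 4.92% of all tested genes higher, so that the shares of the other methyltransferases and of PRC1 were again near the background. DESeq2 gave no p-value for Hells or for Mcm5 of the proliferation list, so neither could be called. The median log2 fold change was 0.22 for methylation partners, -0.01 for genes linked to demethylation, 0.14 for PRC2 subunits and 0.28 for PRC1 subunits. It was 0.16 for enzymes that remove the marks and 0.27 for other methyltransferases, beside 0.03 over all tested genes. Among genes that passed the filter it was 0.55 for the 4 germline, 0.57 for the 7 polycomb-silenced and -0.09 for the 3 islet genes. These medians cover only genes that passed the filter and are given as a description.

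Between functional and non-functional tumors, edgeR and DESeq2 called 0 genes in any of these 10 lists. At an unadjusted p under 0.05 edgeR had 4 of 20 PRC1 subunits, 3 of 20 other methyltransferases, 2 of 9 PRC2 subunits, 1 of 11 methylation partners and 1 of 5 enzymes that remove the marks higher in functional tumors, beside 4.71% of all tested genes. At that p 1 of 7 polycomb-silenced genes was lower, beside 866 of the 15532 tested genes. The polycomb-silenced genes that passed the filter had a median log2 fold change of -0.60, and the proliferation genes one of 0.48, beside 0.01 over all tested genes.

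The genes whose levels over the 9 libraries were most like each enzyme are given as a description, by Pearson's r of log2(CPM + 1). NI2 and NI3 lay far below the other libraries for several of them, and r is high for any 2 genes with that gap. Ezh2 was most like Ddx11 (r = 0.999), Cchcr1 (r = 0.992) and Asf1b (r = 0.992), and Uhrf1 was most like Oip5 (r = 0.995), Wdr62 (r = 0.992) and Skp2 (r = 0.991). Dnmt1 was most like Atad5 (r = 0.994), Pola1 (r = 0.991) and Haus6 (r = 0.990). The nearest genes to Suz12 were Nup160 (r = 0.988), Cstf2 (r = 0.986) and Ppp1r12b (r = 0.979), and those to Ezh1 were Pdik1l (r = 0.990), Ncoa3 (r = 0.980) and Usp37 (r = 0.972).

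Dnmt3a was most like Casp8ap2 (r = 0.975), Zbtb38 (r = 0.970) and Ston2 (r = 0.970), and Dnmt3b, whose order was led by M2, was most like Vwa5b1 (r = 0.969), Atp6v0a4 (r = 0.968) and Tspan14 (r = 0.960). The nearest genes to Tet1 were Smad5 (r = 0.973), Emc8 (r = 0.970) and Gm44167 (r = 0.969), those to Tet2 were Gm20633 (r = 0.966), Zranb3 (r = 0.953) and Ptbp2 (r = 0.953), and those to Tet3 were Pou2f1 (r = 0.980), Pag1 (r = 0.978) and Gtpbp10 (r = 0.976).

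Markers of cell types were summed in each library. The beta, alpha, acinar and lymphoid sums were lower in every tumor than in every islet library, and the sums of the other lists overlapped between tumors and islets. The summed level of 9 beta cell markers was 18407 to 116760 CPM in tumors and 121927 to 365133 CPM in islets, with Ins2 at 7313 to 88719 CPM in tumors and at 88895 to 248686 CPM in islets. Among tumors Ins2 was at 57492, 9544 and 7313 CPM in M1, M2 and M3 and at 39104, 61737 and 88719 CPM in M4, M5 and M6, so that the functional tumors M2 and M3 were below every non-functional tumor. Ins1 was at 21305, 6238 and 3827 CPM in M1, M2 and M3 and at 15783, 19041 and 17161 CPM in M4, M5 and M6, with M2 and M3 again lowest. The 5 alpha cell markers summed to 284 to 814 CPM in tumors and 1570 to 15657 CPM in islets, 3 delta cell markers to 12.5 to 2581 and 92.4 to 2486 CPM, and 10 acinar markers to 1.13 to 362 and 669 to 12606 CPM, the highest in NI3. Fibroblast markers (6 genes) summed to 103 to 2049 CPM in tumors and 120 to 182 CPM in islets, the highest in M4 and the lowest in M6.

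Endothelial markers (5 genes) were at 290 to 863 CPM in tumors and 793 to 912 CPM in islets, macrophage markers (5 genes) at 166 to 439 and 85.8 to 175 CPM, and lymphoid markers (7 genes) at 19.6 to 118 and 172 to 220 CPM. Ductal markers (5 genes) were at 307 to 771 and 389 to 515 CPM, and Schwann cell markers (4 genes) at 13.9 to 22.2 and 15.0 to 20.004 CPM. In no list was a marker at 0 in every tumor or in every islet library. Between functional and non-functional tumors the sums of the acinar markers (1.13 to 25.4 and 50.3 to 362 CPM) and of the Schwann cell markers (13.9 to 14.1 and 17.2 to 22.2 CPM) did not overlap, and those of the other lists did. With 3 against 3 libraries such gaps are not rare. Among single tested genes, 8.77% had all 3 functional tumors above all 3 non-functional tumors, and the share in the other direction was not counted. The part of these cells in the levels of the 10 enzymes was not tested.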

How the data were processed

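The 9 libraries were single-end RNA-seq of 6 tumors and 3 islet samples, 1 library each. The authors trimmed reads with Trimmomatic 0.38, quantified transcripts with salmon 1.4.0 on mm10 and deposited estimated counts per gene as whole numbers, in a table named TPM whose columns sum to 36468280 to 63637175. They tested with DESeq2. The step from transcripts to genes is not given in the sources used here. Symbols and coordinates came from GENCODE M21 (GRCm38), which matched 54094 of 54347 identifiers. Identifiers without a match (253) took up 0.0121% of all counts.

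A gene was tested if 3 or more libraries reached 1 CPM (15532 genes). Fits used edgeR 4.0.16 (TMM factors, glmQLFit and glmQLFTest, R 4.3.3), with tumors as 1 group against islets, and functional against non-functional tumors in a fit of 3 groups. Fits that left out libraries kept these genes. P-values were two-sided and adjusted by the Benjamini-Hochberg method over all tested genes, with a threshold of 0.05. The standard error was the log2 fold change divided by the square root of F. The edgeR fits were also run on simulated counts with a single spread for all genes. No tumor-like islet library was simulated, so that run says nothing about the effect of NI1. The labels do not say whether the replicate numbers pair the samples, and the main fits used no pairing. Deviations of same-numbered tumor and islet libraries correlated at -0.05, 0.03 and -0.16. With 3 such pairs and NI1 among the islets, these values cannot decide whether samples were paired. Alternatives were the scaling, filter, tool (DESeq2 1.42.0, limma 3.58.1), grouping, mitochondrial genes, a replicate block and each library left out. DESeq2 without NI1, and NI1 and M6 left out together, were added after the data were seen.

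The members, the 10 lists of related genes, the marker lists and the tests were chosen with earlier results of these data known. All members were described in every library. From each list, genes past the threshold with all libraries and then without NI1 were named, at most 4 by size of the log2 fold change, or else the 2 with the smallest p, and for each member the 3 tested genes with the highest r. Promoter windows were those of RefSeq for GRCm38.p6, with windows for 10 of 10 members. The study calls its samples biological replicates, but the labels name no animal, so p-values measure the spread between these libraries. Counts of 3 stood for 0.042 to 0.119 CPM.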

Additional observations from a re-analysis of the deposited data

Results flagged for a closer look

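Among the 6 tumors, Uhrf1 was at 77.3 CPM in M3, apart from the other tumors, which lay between 25.8 and 42.7 CPM. The gap to the next tumor was larger than Dixon's 95% critical value allows for 6 samples. In all, 13 measures were examined in this way, of which 0.65 would be marked by chance.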

How the results depend on the processing

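Over 20 alternatives for tumors against islets the log2 fold changes of the 10 genes stayed above 0 in 200 of 200 values, and 0 to 5 genes were called. These values share libraries and are not independent. In edgeR with all libraries 52.5% of all tested genes were above 0. DESeq2 called 2 of the 10 and 1252 of all genes, DESeq2 without NI1 called 5 and 2950, and edgeR without NI1 and M6 called 3 and 1451. Where 1 library at a time was left out, between 0 and 3 of the 10 were called and between 7 and 1321 of all genes, the most without NI1, against 40 with all libraries. All genes called were 66 with library totals alone, 104 with no filter and 98 in the fit of 3 groups. With a replicate block, which rests on 3 pairs of libraries, 0 of the 10 and 40 of all genes were called, 12 of them higher. Pairing by number is neither given by the labels nor decided by the correlations. With 1 library at a time left out, tumors minus islets in the log2 ratio of Ezh2 to Ezh1 ran from 1.33 to 2.17, of Uhrf1 to Dnmt1 from 0.48 to 0.99 and of Dnmt3b to Dnmt3a from 0.45 to 0.79. The causes of these shifts were not tested.

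For functional against non-functional tumors, 169 of 170 values over 17 alternatives were above 0. The exception was Dnmt3b without M2 (-0.34, where leaving out single libraries gave -0.34 to 0.61). These values share libraries too, and in edgeR with all libraries 50.8% of all tested genes were above 0. DESeq2 called 1 of the 10 and 111 of all genes, and with no filter 1 gene in all was called, against 0. Leaving out 1 library at a time gave 0 to 1 genes in all, the 1 being Gm28439 without M2, named after its values were seen. Scaling by library totals alone moved the median log2 fold change of all tested genes to 0.25 in the first comparison and to 0.32 in the second, and all 10 genes stayed above those medians. Leaving out mitochondrial genes changed no call of the 10. With 3 islet libraries, of which NI1 sat with the tumors, differences such as those of the TET genes had standard errors about as large as themselves.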
